A study of Mus musculus with 6 samples.

Results

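The genes described here are 33 genes of DNA replication and mitosis, taken by name from a table of RNA sequencing values for 55298 gene identifiers. They were split into 12 genes of S phase and its entry (Mcm2 to Mcm7, Pcna, Rrm1, Rrm2, Tyms, Ccne1 and Ccne2) and 21 genes that peak in G2 and mitosis (Mki67, Top2a, Cdk1, Ccna2, Ccnb1, Ccnb2, Aurka, Aurkb, Bub1, Bub1b, Birc5, Cdc20, Plk1, Kif11, Kif23, Tpx2, Cenpe, Cenpf, Ube2c, Nusap1 and Prc1). All 33 were in the table, and all 33 passed the filter on low values that 18161 genes passed. The RNA came from cells taken from mouse brain, without culture, by magnetic beads with an antibody against O4, a sulfatide antigen of late oligodendrocyte precursors and oligodendrocytes. The mice, of a strain given as c56Bl/6j, had received either the myelin oligodendrocyte glycoprotein peptide MOG 35-55, to induce experimental autoimmune encephalomyelitis (EAE), or ovalbumin (OVA). Cells were taken when the disease had reached its maximum. The 3 EAE samples were pools of RNA from 2 mice each (6 mice), and the 3 OVA samples held 1 mouse (OVA replicate 1), a pool of 2 mice (OVA replicate 2) and 1 mouse (OVA replicate 3, labelled OVA300). Age and sex are not given in the labels, and no transgene or allele is named.

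A dividing cell passes through S phase, in which it copies its DNA, and through mitosis, in which it separates the copies. The Mcm2 to Mcm7 proteins form the helicase that opens DNA at replication origins, and their genes are switched on by E2F factors before S phase. The mitotic genes follow later, under the MuvB complex with B-Myb and FoxM1, which acts through a promoter element named the CHR (cell cycle genes homology region). The CCAAT box is a separate promoter element of such genes. In the adult brain, oligodendrocyte precursors are the main dividing glia, mature oligodendrocytes have left the cell cycle, and microglia and leukocytes can divide in inflamed tissue.

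The promoters of the members are shown first because the letters of these elements were found at different shares of S phase and mitosis genes. RefSeq promoter sequences of the build GRCm38.p6 (250 bases before to 50 after the start) were found for 28 of the 33 members. Below are the 250 bases before the start, 5′ to 3′ on the gene's strand, for 4 mitosis genes that were higher in EAE than in the OVA samples other than OVA300 and for 2 helicase genes. Capitals mark, on either strand, CCAAT, the CHR letters TTTGAA or TTCGAA, and the E2F letters. Searched as E2F letters were TTGGCGC as well as TTCGCGC, and also TTCCCGC and likewise TTGCCGC.
Mki67: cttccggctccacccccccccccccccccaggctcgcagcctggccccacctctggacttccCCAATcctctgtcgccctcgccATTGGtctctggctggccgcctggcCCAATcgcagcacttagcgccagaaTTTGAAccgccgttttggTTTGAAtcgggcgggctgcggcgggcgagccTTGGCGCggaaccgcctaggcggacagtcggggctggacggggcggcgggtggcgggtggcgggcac
Top2a: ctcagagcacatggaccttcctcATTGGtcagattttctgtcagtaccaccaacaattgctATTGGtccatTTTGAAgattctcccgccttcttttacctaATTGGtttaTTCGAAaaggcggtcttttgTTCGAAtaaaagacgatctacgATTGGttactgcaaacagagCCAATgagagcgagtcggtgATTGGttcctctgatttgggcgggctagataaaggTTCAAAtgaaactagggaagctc
Kif11: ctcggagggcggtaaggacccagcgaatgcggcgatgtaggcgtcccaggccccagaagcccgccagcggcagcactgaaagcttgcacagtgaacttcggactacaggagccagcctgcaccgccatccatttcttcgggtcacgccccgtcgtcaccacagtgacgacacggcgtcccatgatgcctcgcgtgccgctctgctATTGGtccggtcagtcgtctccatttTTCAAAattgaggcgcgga
Ube2c: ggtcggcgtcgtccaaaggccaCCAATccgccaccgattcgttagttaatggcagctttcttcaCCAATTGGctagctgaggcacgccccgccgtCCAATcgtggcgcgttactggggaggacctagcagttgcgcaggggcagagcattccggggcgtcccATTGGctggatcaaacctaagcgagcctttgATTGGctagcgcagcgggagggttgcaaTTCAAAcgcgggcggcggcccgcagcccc
Mcm5: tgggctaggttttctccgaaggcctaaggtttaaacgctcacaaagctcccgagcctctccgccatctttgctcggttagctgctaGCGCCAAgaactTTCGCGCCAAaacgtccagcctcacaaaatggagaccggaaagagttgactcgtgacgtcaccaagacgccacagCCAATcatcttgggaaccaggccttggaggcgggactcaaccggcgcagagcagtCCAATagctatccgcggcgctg
Mcm6: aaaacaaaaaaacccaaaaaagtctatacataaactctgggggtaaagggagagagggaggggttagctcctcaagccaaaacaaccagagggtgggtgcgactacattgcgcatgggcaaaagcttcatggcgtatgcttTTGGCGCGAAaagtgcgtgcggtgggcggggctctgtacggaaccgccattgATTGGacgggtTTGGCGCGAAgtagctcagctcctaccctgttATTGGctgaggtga
They lie at chr7:135716380-135716629 (- strand), chr11:99024190-99024439 (- strand), chr19:37376132-37376381 (+ strand), chr2:164769679-164769928 (+ strand), chr8:75109259-75109508 (+ strand) and chr1:128359706-128359955 (- strand). In Mki67 the CHR letters TTTGAA begin 116 and 98 bases before the start, after 3 CCAAT matches and before TTGGCGC at 67 bases. In Top2a 6 CCAAT matches lie among 4 CHR matches, in Kif11 a CCAAT match at 45 bases precedes a CHR match at 19 bases, and in Ube2c the CHR match at 29 bases follows 6 CCAAT matches. In Mcm6 the E2F letters occur as 2 overlapping pairs, in Mcm5 as 1 overlapping pair and a single match, and neither holds the CHR letters in this window.

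Over the full 300 bases, 14 of 18 mitosis genes with a sequence held the CHR letters (77.8%), and all 14 of these also held CCAAT. Of 10 S phase genes, 2 held the CHR letters (20.0%). Among 27025 genes with a promoter in the same table, 21.7% held the CHR letters and 8.61% held both. The E2F letters were found in 6 of 10 S phase genes (60.0%), in 3 of 18 mitosis genes (16.7%) and in 10.9% of all genes. CCAAT was found in 8 of 10 and 16 of 18 (41.1% of all genes). A CCAAT match can overlap the E2F word TTGGCGC read on the other strand, as it does in Ccnb1, so the counts are not independent. A match is a description of the letters, not evidence of a bound site.

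The values are regularised logarithms (rlog) of library-size-scaled counts in log2 units, in which 1 unit is a 2-fold difference. The transformation shrinks differences of weakly expressed genes towards 0. Read depth is unknown, because the table holds no counts. The 7 oligodendrocyte markers, among them Mbp and Mog, averaged 15.11 to 15.76 over the 6 samples, and markers of endothelial cells, astrocytes and myeloid cells were also present in every sample. In such a mixture, a change in the number of dividing cells and a change in RNA per cell cannot be told apart. Xist, made in female cells from the silenced X chromosome, stood at 13.50 to 14.16 in the EAE pools and 7.39 to 7.63 in the OVA samples, so sex and disease cannot be told apart in any comparison of EAE with OVA. The samples are pools or single mice of different number, so the p-values measure the spread between these samples and not between mice.

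OVA300 stood apart for the cell division genes. It had the highest value of the 6 samples for 31 of the 33 members, where 25.5% of all tested genes had theirs in that sample. It was the highest for all 21 mitosis genes and for 10 of 12 S phase genes, the exceptions being the helicase subunit Mcm7 and the sliding clamp Pcna. For 25 of the 33 members, 19 mitosis and 6 S phase genes, the samples fell in 1 order, with both other OVA samples lowest, the 3 EAE pools between and OVA300 on top. That order held for 4.26% of tested genes. EAE was compared with OVA both with OVA300 and without it. The comparison without OVA300 was set with earlier results of these data known, and the deposited values come from a table that includes that sample.

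**Figure D1:**
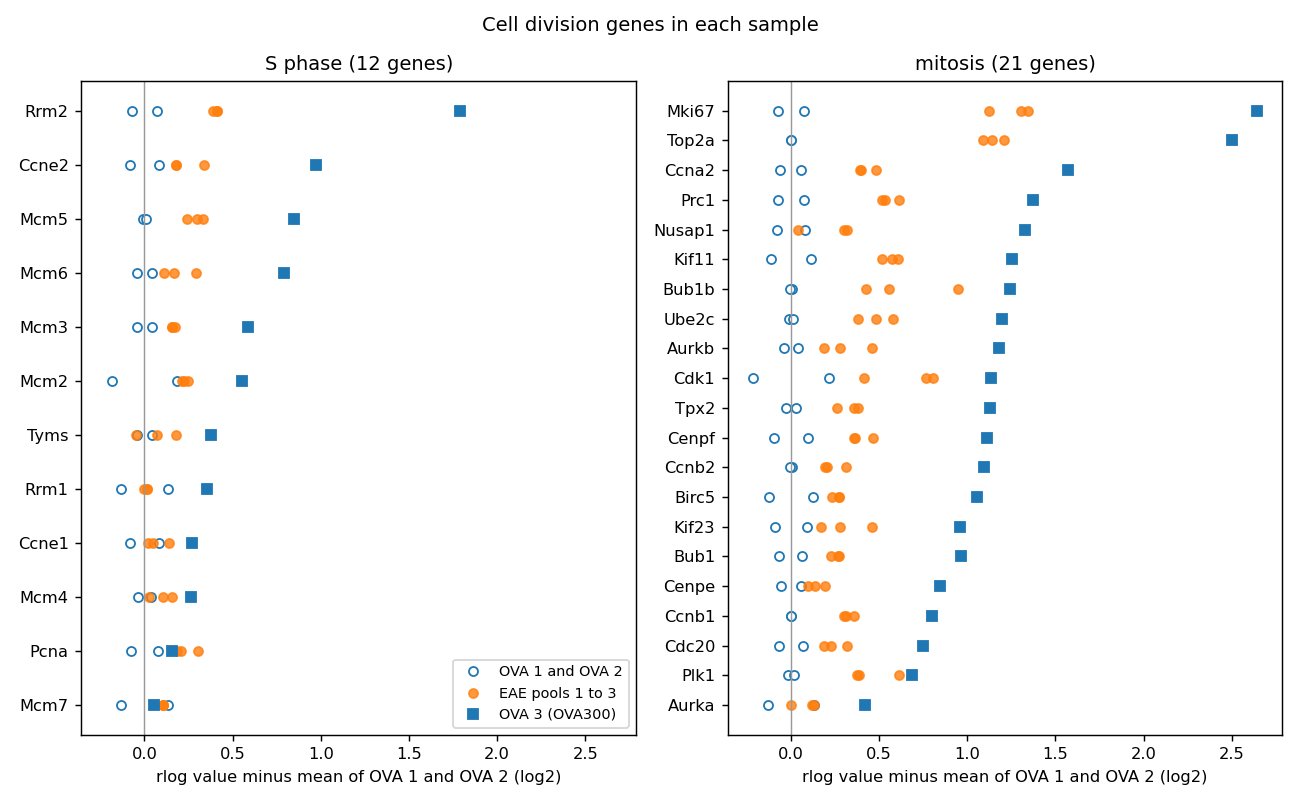
Each row is 1 gene and each point 1 sample, plotted as the rlog value minus the mean of OVA replicates 1 and 2 (log2), with S phase genes on the left and mitosis genes on the right. Open circles are OVA replicates 1 and 2, filled circles the 3 EAE pools and squares OVA300, which is the rightmost point for 31 of the 33 genes.

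Mki67, which encodes the Ki-67 coat protein of mitotic chromosomes, showed the pattern at its widest. Its rlog values were 9.47, 9.51 and 9.29 in EAE replicates 1 to 3, 8.09 and 8.24 in OVA replicates 1 and 2 and 10.81 in OVA300. The EAE pools lay within 0.22 of each other, well above the first pair of OVA samples and well below OVA300. OVA300 exceeded the mean of OVA replicates 1 and 2 by 2.65, a 6.27-fold difference, and 99.9% of tested genes had a smaller distance. Top2a, the DNA topoisomerase that untangles sister chromatids, had 8.55, 8.60 and 8.67 in the EAE pools, 7.46 in both OVA replicates 1 and 2 and 9.96 in OVA300, which lay 2.50 above them (5.66-fold). No other member reached these distances. Rrm2, the regulated subunit of ribonucleotide reductase, came next in OVA300 at 8.08 against 6.36 and 6.22, a distance of 1.79, and Ccna2, the cyclin of S and G2 phase, had 8.13 against 6.62 and 6.50.

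The distance of OVA300 from the other OVA samples was larger for mitosis than for S phase genes. Its median was 1.13 over the 21 mitosis genes (range 0.42 to 2.65) and 0.47 over the 12 S phase genes (0.05 to 1.79), against 0.0057 over all tested genes. A distance over 1 was reached by 14 mitosis genes and 1 S phase gene, and by 1.2% of tested genes. Summed over the list on the linear scale, the level in OVA300 was 3.01 times the mean of OVA replicates 1 and 2 for mitosis and 1.33 times for S phase. Such a sum gives most weight to the genes of highest level, for mitosis Mki67 (10.81 in OVA300) and Top2a (9.96). The mean rlog, which weighs each gene alike, was 1.20 higher for mitosis and 0.58 higher for S phase. OVA300 is 1 sample of 1 mouse, so these distances have no replicate and no test.

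With all 6 samples, the comparison asks whether O4-captured cells of EAE mice held more or less RNA of cell division genes than those of OVA mice. No difference passed the test. limma called 0 of the 33 members higher and 0 lower, against 1.72% of all tested genes higher and 0.666% lower, and 0 members had an unadjusted p under 0.05, which 16.3% of tested genes had. The differences lay above 0 for 15 members and below 0 for 18 (12 and 13 above 0 after quantile normalization and median centring), with a median of -0.02 (-0.0024 over all genes) and a range from -0.22 to 0.38. With array quality weights, which give samples far from their group less weight, 11 members rose, and without OVA300 the count was 5. The share of all tested genes called with these weights is not given, so the 11 cannot be set against it. The unweighted standard errors were wide where OVA300 stood far off. Mki67 differed by 0.38 ± 0.65 and Top2a by 0.32 ± 0.61 (SE; limma adjusted p = 0.82 and 0.84). The smallest adjusted p of the list was that of Pcna, which clamps DNA polymerase to its template. Its values were 10.54, 10.44 and 10.42 in EAE and 10.16, 10.31 and 10.39 in OVA, the only member whose groups did not overlap (12.1% of tested genes had every EAE pool above every OVA sample), with a difference of 0.18 ± 0.08 (SE; limma adjusted p = 0.33). The most negative difference was that of Nusap1, a spindle protein, at -0.22 ± 0.34 (SE; limma adjusted p = 0.79). Its values were 6.23, 6.25 and 5.97 in EAE against 6.01, 5.85 and 7.26 in OVA, so that OVA300 alone lay above every EAE pool.

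Without OVA300, all 33 members lay above 0 as deposited (32 after quantile normalization or median centring, where Rrm1 turned, and 29 without OVA replicate 1), 5 rose and 0 fell. The count of 5 became 2 without the filter on low values, 8 with a mean rlog of at least 5 and 10 without the intensity trend, and 2 when OVA replicate 1 or either of EAE replicates 1 and 2 was also dropped. The 5 were the mitosis genes Mki67, Top2a, Kif11, Prc1 and Ube2c, and limma called 4.68% of all tested genes higher and 1.91% lower in the same comparison. The shares of all tested genes called under the other settings are not given. An unadjusted p under 0.05 was found for 18 of 21 mitosis genes and 4 of 12 S phase genes, against 23.3% of tested genes. The median difference was 0.34 for mitosis genes (range 0.08 to 1.26) and 0.18 for S phase genes (0.01 to 0.41), against -0.0035 over all genes. Every EAE pool lay above both OVA samples for 19 of the mitosis genes and 7 of the S phase genes, as it did for 21.4% of tested genes. Because the comparison keeps only 2 OVA samples, its p-values rest on the spread that limma shares between genes. An exact permutation test of 3 against 2 samples on the absolute difference cannot give a two-sided p under 0.1, and neither can one of 3 against 3.

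**Figure D2:**
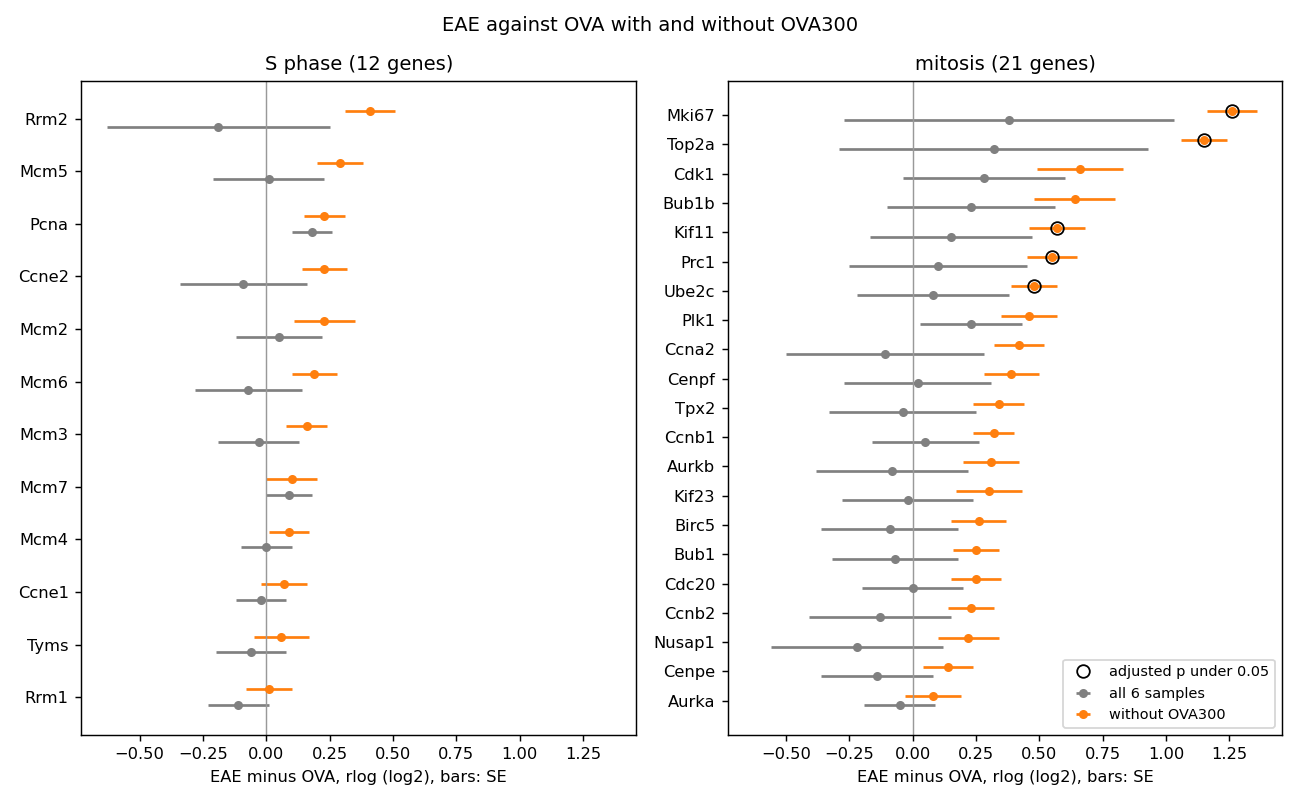
Points give EAE minus OVA in rlog units (log2) and bars the standard error, for S phase genes (left) and mitosis genes (right). Grey points use all 6 samples and orange points leave out OVA300, and black rings mark the 5 genes past an adjusted p of 0.05. Leaving out OVA300 moves every gene to the right of 0 in the values as deposited (Rrm1, at 0.01, turns under other scalings) and narrows most bars.

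The mean of Mki67 was 8.16 in OVA replicates 1 and 2 and 9.43 ± 0.12 in EAE (SD, n = 3). It rose by 1.26 ± 0.10 (SE), or 2.40-fold, with a limma adjusted p of 0.0014. The mean of Top2a was 7.46 in OVA replicates 1 and 2 and 8.61 ± 0.06 in EAE (SD, n = 3). It rose by 1.15 ± 0.09 (SE), or 2.22-fold, with the same limma adjusted p of 0.0014. Mki67 lies on chromosome 7 (135689784 to 135716361, ENSMUSG00000031004.8) and Top2a on chromosome 11 (98992943 to 99024189, ENSMUSG00000020914.17), in GENCODE M21 on GRCm38. These 2 were the members past the threshold whichever further sample was left out and under every other setting tried, with adjusted p of at most 0.025 and 0.021.

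The other 3 rose by less and passed under fewer settings. Kif11, the motor that pushes spindle poles apart, had 8.24, 8.15 and 8.21 in EAE, 7.52 and 7.75 in OVA replicates 1 and 2 and 8.89 in OVA300. It rose 1.48-fold without OVA300 (limma adjusted p = 0.025). Prc1, which bundles microtubules at the midzone of the anaphase spindle, had 6.93, 7.03 and 6.95 in EAE, 6.34 and 6.49 in OVA replicates 1 and 2 and 7.79 in OVA300, and rose 1.47-fold (limma adjusted p = 0.024). Ube2c, the ubiquitin-conjugating enzyme of the anaphase-promoting complex, had 5.83, 5.73 and 5.63, then 5.24 and 5.26, then 6.45, and rose 1.39-fold (limma adjusted p = 0.027). For each of the 3 genes the EAE values lay between the pair of low OVA samples and OVA300 without overlap. Of the 5 fits that left out a further sample, Kif11 passed in 1 (without OVA replicate 2), Ube2c in 1 (without EAE replicate 3) and Prc1 in 2 (without OVA replicate 2 and, at an adjusted p of 0.05 after rounding, without EAE replicate 3). Without OVA replicate 1 the limma adjusted p were 0.12, 0.13 and 0.12.

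A further 6 members had adjusted p between 0.053 and 0.059 without OVA300 and did not pass. Cdk1, the kinase that drives entry into mitosis, had 6.31, 6.27 and 5.92 in EAE, 5.29 and 5.72 in OVA replicates 1 and 2 and 6.64 in OVA300, a difference of 0.66 ± 0.17 (SE; limma adjusted p = 0.059). Its partner cyclin Ccnb1 had 5.46, 5.41 and 5.40, then 5.10 in both, then 5.90, a difference of 0.32 ± 0.08 (SE; limma adjusted p = 0.059). The others were the spindle checkpoint kinase Bub1b (0.64), the polo-like kinase Plk1 (0.46), Ccna2 (0.42) and Rrm2 (0.41). Bub1b had the widest spread among the EAE pools of all members, from 7.30 to 7.82, where the median spread of the members was 0.12. The remaining mitosis genes did not pass either. They encode Aurora kinases (Aurka 0.08, Aurkb 0.31), their partners Birc5 (0.26) and Tpx2 (0.34), the checkpoint kinase Bub1 (0.25), the anaphase activator Cdc20 (0.25), Ccnb2 (0.23), the cytokinesis motor Kif23 (0.30), the centromere proteins Cenpe (0.14) and Cenpf (0.39) and Nusap1 (0.22).

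Of the S phase genes, none passed the test without OVA300. Mcm5 differed by 0.29, Mcm2 by 0.23, Mcm6 by 0.19, Mcm3 by 0.16, Mcm7 by 0.10 and Mcm4 by 0.09 (limma adjusted p from 0.12 to 0.57). In OVA300, Mcm5 and Mcm6 lay 0.85 and 0.79 above the other OVA samples, while Mcm4 lay 0.27 and Mcm7 0.05 above them. No test compared these genes with each other. Pcna differed by 0.23 ± 0.08 (SE; limma adjusted p = 0.13). The subunits of ribonucleotide reductase, which makes deoxynucleotides, had unlike values. Rrm1 differed by 0.01 and Rrm2 by 0.41, and in OVA300 the distances were 0.36 and 1.79. Of the cyclins of S phase entry, Ccne1 had 4.99, 5.11 and 5.02 in EAE, 4.89 and 5.05 in OVA replicates 1 and 2 and 5.24 in OVA300, a difference of 0.07 ± 0.09 (SE; limma adjusted p = 0.66), and Ccne2 differed by 0.23 and was 0.97 higher in OVA300. Tyms, thymidylate synthase, differed by 0.06.

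Per kilobase of exon, given as the rlog value minus the log2 of the exon length, the 6 members of highest level in EAE were all S phase genes. Pcna led at 9.21 and was followed by Mcm4 at 7.99, Mcm7 at 7.22, Mcm6 at 7.05, Mcm3 at 6.96 and Rrm1 at 6.63. Mki67 was next at 6.10 on that scale, and Top2a stood at 5.44. Pcna and Mcm7 were the only members for which OVA300 was not the highest sample, while Mcm4, Mcm6, Mcm3 and Rrm1 of the same 6 were highest there.

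Of 110 genes in 4 related lists, 108 were tested, and with all 6 samples limma called 0 of them, with 7 at an unadjusted p under 0.05. In the comparison that drops OVA300, 8 rose and 0 fell, against 4.68% and 1.91% of all tested genes, and 85 of the 108 differences were positive (median 0.15). Of 49 other mitosis genes 6 rose, namely the spindle pole gene Aspm (0.61), the kinetochore genes Nuf2 (0.56) and Spc24 (0.31), the spindle gene Ckap2l (0.53) and the kinesins Kif4 (0.44) and Kif18b (0.36). Of 33 other replication genes 2 rose, thymidine kinase Tk1 (0.59) and the histone chaperone subunit Chaf1b (0.37). These 8 were named after their values were seen. With each further sample left out in turn the count of 8 ran from 0 to 8, with 1 without EAE replicate 1 and 0 without EAE replicate 2 or OVA replicate 1, and it was 0 without the filter on low values, 5 after quantile normalization and 4 after median centring. OVA300 was the highest sample for 44 of the 49 and 26 of the 33, against 25.5% of all tested genes. It was also the highest for 12 of 20 genes of the G1 list and 4 of 6 inhibitors described next. The order of both other OVA samples, EAE and OVA300 held for 27 of the 49, 15 of the 33, 4 of the 20 and 1 of the 6. That order held for 4.26% of all tested genes. An exception was Anln, named after its value was seen, an actin-binding protein of the cytokinetic ring that is also a myelin protein. It stood at 14.02 to 14.34 in the samples other than OVA300 and at 13.76 there.

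Of 20 G1 cyclins, their kinases and the E2F and Rb factors, 0 passed in either comparison, with 3 at an unadjusted p under 0.05 with 6 samples and 7 without OVA300. E2f3 and E2f6, a transcriptional activator and a repressor of the same family, had the smallest p of that list with 6 samples and differed by -0.26 ± 0.08 and -0.25 ± 0.08 (SE; limma adjusted p = 0.16 and 0.20). Every EAE pool lay below every OVA sample for both, including OVA300, as it did for 10.8% of tested genes. For 2 other genes of the list, Myc (0.25) and Cdk4 (0.17), every EAE pool lay above every OVA sample, as it did for 12.1% of tested genes. These 2 were named after their values were seen. Of 7 inhibitors of cyclin-dependent kinases 6 were tested and 0 passed in either comparison, with 1 and 2 at an unadjusted p under 0.05. Cdkn1a, which encodes p21, had 11.74, 11.25 and 10.85 in EAE and 10.54, 11.24 and 10.24 in OVA, with OVA300 the lowest, and differed by 0.60 ± 0.29 (SE; limma adjusted p = 0.36). Cdkn2d differed by 0.20 ± 0.09 (0.31). In the replication list the smallest p were those of Fen1 (0.24 ± 0.10, adjusted p = 0.29) and Dut (-0.27 ± 0.13, 0.35), and in the mitosis list those of the phosphatase Cdc25b (-0.45 ± 0.16, 0.22) and Nuf2 (0.40 ± 0.16, 0.27), all from the limma fit with 6 samples.

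Most markers of neutrophils, erythroid cells and B cells had their highest value in OVA300, where 25.5% of all tested genes had theirs. Of the other leukocyte lists, 0 of 10 T cell, 0 of 8 myeloid and 2 of 8 monocyte and macrophage markers were highest in OVA300. Of 10 neutrophil markers 9 were highest there, and their summed linear level was 59000 against 3110 to 6270 in the other 5 samples. Mpo, myeloperoxidase of neutrophil precursors, stood at 10.79 in OVA300 and at 4.36 to 4.85 elsewhere. All 6 erythroid and all 6 B cell markers were highest in OVA300, with summed levels of 11600 against 3320 to 7470 and of 4740 against 1630 to 2260. Slc4a1, the anion exchanger of red cell membranes, stood at 8.46 against 4.92 to 5.14. All 4 tested markers of B cell precursors, a list added after the values were seen, were also highest there, such as the recombinase Rag1 at 7.89 against 5.45 to 5.83. All 8 endothelial and all 6 pericyte and smooth muscle markers were highest there too, the endothelial ones with a summed level of 78600 against 35500 to 56800, while the oligodendrocyte and oligodendrocyte precursor markers averaged 0.47 and 0.30 below OVA replicates 1 and 2. Their part in the cell division values of OVA300 was not tested.

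Other markers moved with the EAE pools. Without OVA300, 9 of 10 T cell, 7 of 8 myeloid and 7 of 8 monocyte and macrophage markers rose in EAE. In that comparison limma called 4.68% of all tested genes higher and 1.91% lower. The summed levels of these 3 lists in EAE were 1.70, 1.69 and 3.86 times those of OVA replicates 1 and 2. In the EAE pools the summed T cell level was 621 to 712 against 385 to 460 in OVA, the myeloid level 47800 to 52700 against 27100 to 31600, and the monocyte level 11000 to 17400 against 3370 to 5800. Ly6c2, a surface antigen of inflammatory monocytes, was as high in OVA300 (9.39) as in EAE (9.35, 9.37 and 8.74) and lower in OVA replicates 1 and 2 (6.63 and 6.49), which is the order of 25 of the cell division genes. It was the only one of the 8 monocyte and macrophage markers in that order, and 6 of the 8 were not highest in OVA300. For 4 of the 8 every EAE pool lay above every OVA sample. One was Gpnmb, a membrane glycoprotein of macrophages, at 11.80 to 12.34 in EAE, 8.15 in OVA300 and 7.42 and 7.40 in OVA replicates 1 and 2. In OVA300, Ccr2 (9.26) and Plac8 (9.45) lay within the range of the EAE pools (8.98 to 9.42 and 8.68 to 9.79). All 8 were higher in OVA300 than the mean of OVA replicates 1 and 2, by 0.23 to 2.83 (the genes were named after their values were seen). With OVA300 included, 6 T cell, 5 myeloid and 3 monocyte and macrophage markers rose, against 1.72% of all tested genes. Of 5 ependymal markers 4 rose without OVA300. The summed neutrophil, erythroid and B cell levels of the EAE pools overlapped those of OVA replicates 1 and 2, with 1 of 10 neutrophil markers lower and 0 of 6 and 0 of 6 of the others past the test. Of 7 astrocyte markers 5 fell and 1 rose, and of 7 markers of resting microglia 3 fell. Of 8 oligodendrocyte precursor markers 2 fell, Ptprz1 (-0.71) and Tmem100 (-0.45), and 0 rose past the test. The other 6 differences lay above 0, the largest being those of C1ql1 (0.28) and Pdgfra (0.22). Over the 8 markers the median difference was 0.07 and the mean -0.03 (the genes were named after their values were seen). No marker of these lists was at 0 in every sample. The part of any of these cells in the rise of Mki67 and Top2a was not tested.

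**Figure D3:**
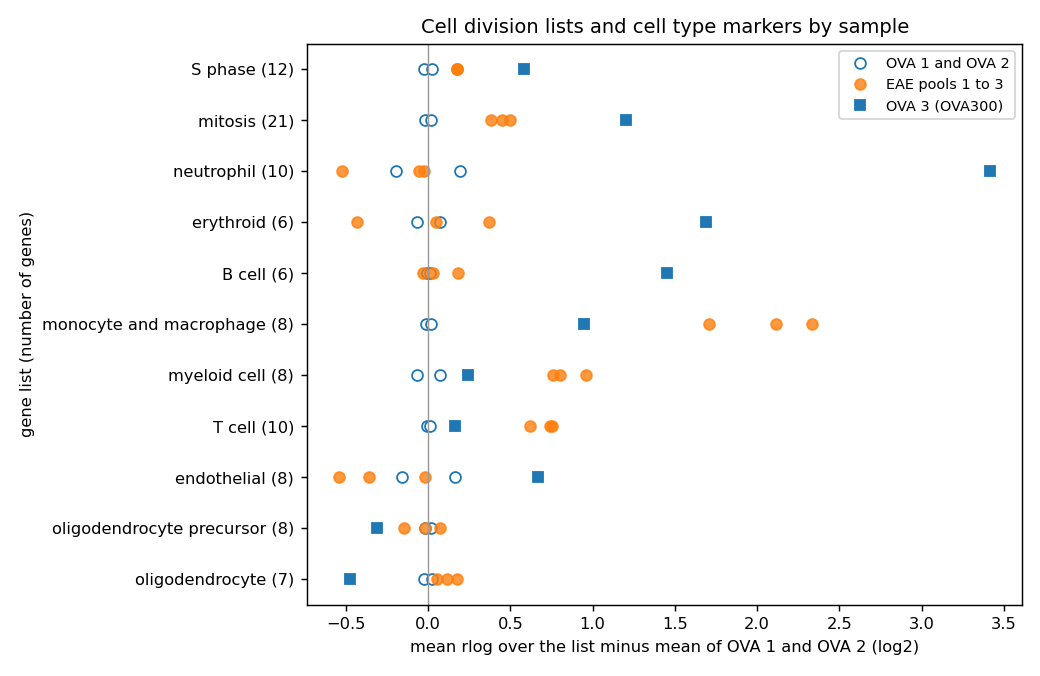
Each row is a gene list with its number of genes, and each point the mean rlog over the list in 1 sample minus the mean of OVA replicates 1 and 2 (log2). OVA300 (squares) lies far right for mitosis (1.20), neutrophil (3.42), erythroid (1.69) and B cell (1.45) lists. It lies less far right for monocyte and macrophage (0.95), endothelial (0.67), S phase (0.58), myeloid (0.24) and T cell (0.16) lists, and left for both oligodendrocyte lists. The EAE pools (filled circles) lie to the right for mitosis, monocyte, myeloid and T cell lists. They lie less far right for the S phase (mean 0.17) and oligodendrocyte (0.12) lists.

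Some values carry a limit of counting. Exons of 8 members overlap those of a gene on the opposite strand (Ccna2, Ccne2, Cdc20, Mcm7, Nusap1, Plk1, Prc1 and Ube2c). The library kit keeps strand, but no source used here says whether the counting used it. Processed pseudogenes named after Ccnb1, Ccnb2, Pcna and Tyms are annotated, and reads shared with them could be split or lost.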

How the data were processed

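RNA was sequenced from 6 samples of O4-captured mouse brain cells (3 EAE, 3 OVA). The deposited table, made by the authors, holds log2-scale values per gene, and its name marks them as rlog values. Per the submitters' processing notes, DESeq2 1.24.0, STAR 2.6.1c, cutadapt 1.18, Subread 1.6.1 and bcl2fastq 2.17 were used with GRCm38, in roles and an order that the notes do not state. Per the labels' protocols, the TruSeq Stranded mRNA kit gave the libraries. Whether the transformation used the groups, and the annotation release, are not given in the sources used here. Identifiers were matched to GENCODE M21 without their version (55117 of 55298, 99.7%), and a symbol stands for its identifier of highest mean. Genes at 0 in every sample (25244) or with a mean rlog under 3 were left out, which left 18161. EAE was compared with OVA by limma 3.58.1 in R 4.3.3 (intensity trend, two-sided, Benjamini-Hochberg over all tested genes, threshold 0.05), with all 6 samples and without OVA300. The fit was tested on simulated data. The members and lists were chosen with earlier results of these data known. One marker gene is not reported here and was left out of its list. Alternatives were the filter, the variance model, sample weights, scaling and leaving out each sample. Full values are given for members past the threshold in either comparison, for Mki67, Top2a, Pcna, Cdk1, Ccnb1 and Ccne1 and for the largest differences in each direction, and from each related list up to 3 genes past the threshold per direction or the 2 of smallest p.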

Additional observations from a re-analysis of the deposited data

How the results depend on the processing

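With 6 samples, 0 members passed in either direction under the other filters, variance models and scalings. With array quality weights, whose estimation stopped before its tolerance was reached, 11 rose, beside 22 higher and 3 lower related genes (0 and 0 without weights). The share of all tested genes called with these weights is not given. With each sample left out in turn, the count of higher members ran from 0 to 5 and that of higher related genes from 0 to 8, the 5 and the 8 being without OVA replicate 3, which is OVA300. The signs of the 6-sample differences, none past the threshold, turned often: 18 of 33 without OVA300 and 10 each without OVA replicate 1 or 2. The ranges with 1 sample left out were Mcm2 -0.14 to 0.23, Mcm3 -0.15 to 0.16, Mcm4 -0.06 to 0.09, Mcm5 -0.14 to 0.29, Mcm6 -0.22 to 0.19, Rrm1 -0.23 to 0.01, Rrm2 -0.52 to 0.41, Tyms -0.15 to 0.06, Ccne1 -0.10 to 0.07, Ccne2 -0.29 to 0.23, Mki67 -0.10 to 1.26, Top2a -0.10 to 1.15, Cdk1 -0.01 to 0.66, Ccna2 -0.40 to 0.42, Ccnb1 -0.08 to 0.32, then Ccnb2 -0.31 to 0.23, Aurka -0.19 to 0.08, Aurkb -0.30 to 0.31, Bub1 -0.26 to 0.25, Birc5 -0.33 to 0.26, Cdc20 -0.16 to 0.25, Kif11 -0.12 to 0.57, Kif23 -0.22 to 0.30, Tpx2 -0.25 to 0.34, Cenpe -0.31 to 0.14, Cenpf -0.21 to 0.39, Ube2c -0.12 to 0.48, Nusap1 -0.49 to 0.22, Prc1 -0.17 to 0.55. Differences that changed sign were, with array quality weights, Mcm3 0.19, Mcm6 0.15, Mcm7 -0.02, Rrm2 0.43, Ccne1 0.00, Ccne2 0.13, Ccna2 0.44, Ccnb2 0.21, Aurkb 0.31, Bub1 0.17, Birc5 0.35, Cdc20 0.29, Kif23 0.22, Tpx2 0.35, Cenpe 0.16, Nusap1 0.28, with quantile normalization, Mcm4 -0.01, Mcm5 -0.02, Cenpf -0.01, and with median centring, Mcm4 -0.02, Mcm5 -0.01.

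Without OVA300, the 5 higher members became 2 without the filter on low values, 8 with a mean rlog of at least 5 and 10 without the intensity trend, and ran from 2 to 6 with a further sample left out (2 when OVA replicate 1 or either of EAE replicates 1 and 2 was dropped). The 8 higher related genes became 0 without the filter, 5 with quantile normalization and 4 with median centring, and ran from 0 to 8 with a sample left out. The lower related genes went from 0 to 1 with median centring, E2f6, and ran from 0 to 1 with a sample left out. Differences near 0 changed sign for Rrm1, to -0.01 with quantile normalization and -0.04 with median centring, and with a sample left out for Mcm7 -0.03 to 0.24, Rrm1 -0.12 to 0.14, Ccne1 -0.01 to 0.16, Aurka -0.04 to 0.21. Where 1 OVA sample was left, it was assumed to vary like the EAE pools. The shares of all tested genes called in these alternative fits are not given, so the counts cannot be set against them. No paired analysis was possible because the numbers in the labels count mice within each group. Read depth is unknown, so no detection limit can be given.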
